A study of Mus musculus with 15 samples.

Results

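The lysosomal genes described here are 33 genes that encode lysosomal hydrolases, their partners, lysosomal membrane proteins, subunits of the proton pump and a small number of regulators. They were selected by symbol, from a list drawn up with results of these data already known. The differences between knockdown and control cells therefore count among the values they were chosen on, and they are given below as a description. Calls from a fit over all genes are counted beside the share of all genes and are not read as tests of these 33. All 33 listed symbols were found among the 24819 genes of the tables.

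The lysosome is the acidic organelle in which proteins, glycans, glycogen and lipids are broken down to reusable parts. Its enzymes work only at the low pH kept up by the proton pump in its membrane, and its membrane proteins protect it, move ions and lipids across it and dock it to other organelles. Many lysosomal genes carry a short promoter sequence bound by TFEB and its relatives TFE3 and MITF, transcription factors that are kept out of the nucleus when the kinase complex mTORC1 is active on the lysosomal surface. Embryonic stem cells use lysosomes and autophagy for turnover as other growing cells do, and TFE3 is known in mouse embryonic stem cells for holding back the exit from self-renewal.

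RNA was sequenced from E14, an embryonic stem cell line of the mouse kept on gelatin in medium with serum and leukemia inhibitory factor. The cells had been transfected with an siRNA against Rpl11 (siRpl11), Rpl14 (siRpl14), Rpl18 (siRpl18) or Rpl23 (siRpl23), each encoding a protein of the large ribosomal subunit, or with a non-targeting siRNA (siNT) that went through the same transfection. Sample titles put the harvest at 48 h, whereas the treatment protocol gives 3 days, and the sources used here do not settle which holds. Each of the 5 groups had 3 libraries of polyadenylated RNA made with a stranded kit. Nothing in the labels says that the libraries of a group came from separate cultures, so every p-value below measures the spread between libraries, which may be technical.

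Levels are FPKM, sequenced fragments scaled to transcript length and to library size, in 2 separately normalized tables. The first holds replicates 1 and 2 of every group and carried the fits. The second holds the third library of every group, which is set only against the third siNT library. In the first table Rpl11 stood at 168 and 187 FPKM in siRpl11 and 702 and 772 FPKM in siNT, and each targeted gene was left at 24.0% (Rpl11), 51.6% (Rpl14), 32.6% (Rpl18) and 36.3% (Rpl23) of its siNT mean in its own knockdown. Relative depth, from the size of 1-read steps at low genes, lay between 0.697 and 1.4 times that of siNT replicate 1. All 8 markers of embryonic stem cells were above 1 FPKM in all 10 libraries. The markers of macrophages, cells rich in lysosomes, were all below 1 FPKM in those libraries, with Adgre1 and Tyrobp listed at 0 and a summed level of 0.472 to 1.09 FPKM over 8 genes. In bulk RNA, fewer cells of a type and less RNA per cell cannot be told apart.

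The promoters of 4 of the lysosomal genes are shown because they hold, or lack, the motif for which the family is known. The motif is CACGTG, the core bound by TFEB and its relatives, and each sequence covers 250 bases ahead of the transcription start, 5′ to 3′ on the gene's strand, with every CACGTG in capitals. The sequences and starts are RefSeq's on build GRCm38.p6, which is not the build the FPKM were made on.
Lamp1 (chr8:13158911-13159160, plus strand): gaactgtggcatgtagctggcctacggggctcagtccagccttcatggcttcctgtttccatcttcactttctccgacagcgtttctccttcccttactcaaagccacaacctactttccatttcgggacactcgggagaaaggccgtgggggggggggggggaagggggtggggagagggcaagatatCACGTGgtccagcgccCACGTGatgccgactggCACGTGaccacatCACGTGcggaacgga
Ctsd (chr7:142387828-142388077, minus strand): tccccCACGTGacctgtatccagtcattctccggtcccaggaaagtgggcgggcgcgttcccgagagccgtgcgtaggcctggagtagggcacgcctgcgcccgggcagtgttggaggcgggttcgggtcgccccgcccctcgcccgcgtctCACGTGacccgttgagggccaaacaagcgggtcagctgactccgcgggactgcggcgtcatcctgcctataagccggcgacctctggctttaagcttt
Mcoln1 (chr8:3500269-3500518, plus strand): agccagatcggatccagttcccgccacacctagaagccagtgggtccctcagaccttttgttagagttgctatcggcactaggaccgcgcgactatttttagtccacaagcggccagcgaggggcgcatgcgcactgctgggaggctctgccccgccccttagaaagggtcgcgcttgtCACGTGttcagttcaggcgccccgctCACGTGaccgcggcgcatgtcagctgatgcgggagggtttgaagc
Man2b1 (chr8:85083019-85083268, plus strand): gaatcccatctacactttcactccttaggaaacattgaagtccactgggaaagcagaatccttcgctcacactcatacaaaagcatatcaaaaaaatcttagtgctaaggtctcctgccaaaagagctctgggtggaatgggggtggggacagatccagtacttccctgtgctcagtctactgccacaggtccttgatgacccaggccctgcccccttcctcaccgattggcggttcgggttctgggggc
Lamp1 has 4 copies in this stretch, Ctsd has 2 and Mcoln1 has 2. Man2b1, the gene of the set with the highest fold over siNT, has none.

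CACGTG and the longer TCACGTGA, which contains it, read the same on both strands and were searched in windows of 300 bases around each start. Windows were at hand for 28 of the 33 genes, leaving out Galns, Ctsb, Asah1, Atp6v1h and Npc1. CACGTG stood in 10 of the 28, or 35.7%, against 8.09% of the 27025 genes with a window. TCACGTGA stood in 5 of the 28, or 17.9% (Ctsa, Ctsd, Mcoln1, Atp6v0d1 and Gla), against 1.12% of all genes. The share with CACGTG was 20.0% (12 of 60) in a wider list of lysosomal genes that are not among the 33. None of the 3 windows of Tfeb held either motif. Members with and without CACGTG had close median log2 differences from siNT, at -0.50 and -0.45 in siRpl11, 0.03 and -0.01 in siRpl14, -0.01 and -0.09 in siRpl18, and 0.05 and 0.00 in siRpl23. A match is a run of letters in this window and does not show binding.

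The 33 genes spanned a wide range of levels in siNT. Lamp1, Ctsd, Cd63, Sqstm1 and Psap led, with siNT means of 199.9, 177, 134, 113 and 107 FPKM, and Galns and Naglu were lowest, with 1.22 and 1.55 FPKM. All 33 passed the filter of at least 1 FPKM in at least 2 of the 10 libraries, as did 12249 genes in all. Summed over the 33 genes, the level was 1262 and 1281 FPKM in siRpl11, 1759 and 1790 FPKM in siRpl14, 1775 and 1855 FPKM in siRpl18, and 1886 and 1852 FPKM in siRpl23, against 1570 and 1567 FPKM in siNT. The sum lay below siNT in siRpl11 and above it in each of the other 3 knockdowns, without overlap, and the third libraries lay in the same places (1153, 1888, 1762 and 1874 FPKM, against 1587 FPKM in siNT). Genes with high levels or large changes weigh most in such a sum. Man2b1 had means of 98.5, 99.4 and 104.7 FPKM in siRpl14, siRpl18 and siRpl23, against 15.95 FPKM in siNT. Ctsd had 259.9, 298.3 and 297.5 FPKM, against 177 FPKM. In these 3 knockdowns 16, 13 and 15 of the 33 genes lay above siNT and 17, 20 and 18 below it.

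Set against siNT, the genes divided into 3 patterns. In 17 genes the mean lay below siNT in all 4 knockdowns, and these were mostly hydrolases. In 6 genes (Ctsd, Lamp1, Man2b1, Npc1, Ppt1 and Tpp1) it lay above siNT in all 4. In 7 genes (Atp6v0d1, Gaa, Grn, Lamp2, Mcoln1, Scarb2 and Sqstm1) it lay below siNT in siRpl11 and above siNT in siRpl14, siRpl18 and siRpl23. Galns, Cd63 and Atp6ap1 followed none of these. Of the 17, 12 also had no overlap with siNT and the same signs in replicate 3. The same held for 6 of the 7, all but Lamp2. Among those above siNT in all 4, the siRpl11 libraries of Ctsd overlapped siNT. In replicate 3 the log2 difference was negative in siRpl11 for Ctsd (-0.02), Lamp1 (-0.1) and Npc1 (-0.17). It was negative for Npc1 in siRpl23 (-0.11) and Ppt1 in siRpl18 (-0.15). The shares of all tested genes with these patterns were not counted. In siRpl11, siRpl14, siRpl18 and siRpl23 singly, 51.1%, 38.5%, 42.8% and 39.6% of all tested genes had both libraries below both siNT libraries. Both lay above both siNT libraries in 33.9%, 42.0%, 40.2% and 43.0%, so lack of overlap was common among all genes. The siRpl11 cells had the lowest log2 difference of the 4 knockdowns in 29 of the 33 genes, where 55.3% of all tested genes had it there, and in 30 of 33 among the third libraries, where 50.8% of all tested genes did.

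The counts of genes called at a limma adjusted p under 0.05 on log2(FPKM + 1) need the share of all tested genes beside them. In siRpl11, 5 of the 33 were called higher and 25 lower than siNT, where 27.3% of all genes were called higher and 43.6% lower. In siRpl14 the counts were 13 higher and 12 lower, where 33.3% and 29.5% of all genes were called so. In siRpl18 they were 11 higher and 15 lower, beside 32.8% and 34.7% of all genes. In siRpl23 they were 14 higher and 12 lower, beside 34.9% and 30.8% of all genes. Since these contrasts belong to the choice of the genes, nothing is read from the counts. The 4 contrasts also share the siNT libraries.

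**Figure D1:**
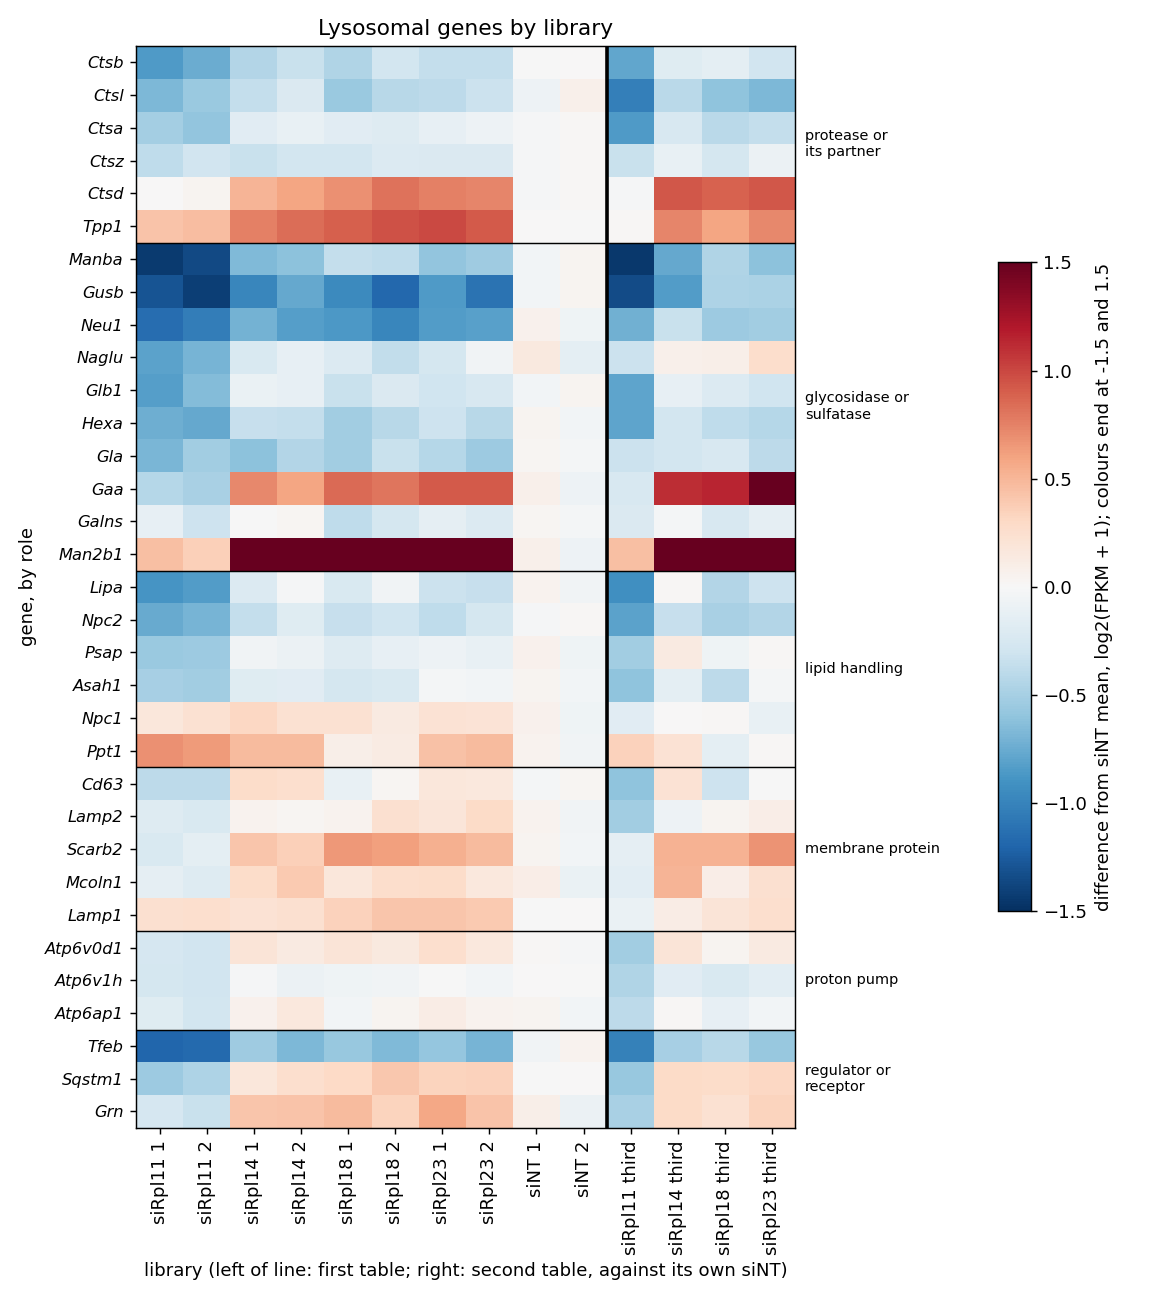
Log2 difference from the siNT mean, in log2(FPKM + 1), of the 33 lysosomal genes (rows, grouped by role) in each library (columns), with the third libraries right of the line and set against the third siNT library. Blue is below and red above siNT, with colours ending at -1.5 and 1.5, and the siRpl11 columns are blue for most rows, whereas the rows of Man2b1 (6.18 to 6.56 times siNT), Gaa, Ctsd and Tpp1 are red in the other 3 knockdowns.

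The median log2 difference from siNT over the 33 genes was -0.45 in siRpl11, -0.05 in siRpl14, -0.14 in siRpl18 and -0.04 in siRpl23. Over all tested genes it was -0.11, 0.02, -0.02 and 0.02 in the same order. The third libraries gave -0.52, 0.00, -0.15 and -0.04 for the 33 genes, and 30, 28, 31 and 28 of the genes kept the sign of the first table there. The list's median was lower than that of all genes in siRpl11. In siRpl18 it was -0.06 without siRpl18 replicate 1 and -0.08 without siNT replicate 1, and in siRpl23 it was -0.08 without siNT replicate 2 and -0.10 after quantile normalization. Quantile normalization moved the median of all genes in siRpl11 by 0.12, and relative to all genes the 33 then stood at -0.39, compared with -0.34 on the deposited scale. The share of higher among all called genes in siRpl11 depends on the scale: it was 38.5% as deposited, 50.9% after quantile normalization and 47.4% after median-ratio scaling.

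Most glycosidases and the sulfatase, the enzymes that take glycans apart from their ends, lay below siNT. Of these 10 genes, 9 had a lower mean in siRpl11, 7 in siRpl14, 8 in siRpl18 and 8 in siRpl23. Gusb, beta-glucuronidase, had 4.70 and 4.26 FPKM in siRpl11, 6.14 and 7.24 FPKM in siRpl14, 6.26 and 5.22 FPKM in siRpl18, and 6.82 and 5.51 FPKM in siRpl23, against 12.6 and 13.5 FPKM in siNT. All 8 knockdown libraries lay below both siNT libraries, with mean ratios to siNT of 0.344, 0.513, 0.440 and 0.473 in the order just given. Neu1, the lysosomal sialidase, had 2.52 and 2.78 FPKM in siRpl11, 3.75 and 3.37 FPKM in siRpl14, 3.28 and 2.94 FPKM in siRpl18, and 3.33 and 3.42 FPKM in siRpl23, against 7.10 and 6.45 FPKM in siNT. It too was lower in every knockdown library than in siNT. Manba, beta-mannosidase, had 31.1 and 32.9 FPKM in siRpl11, 53.7 and 55.4 FPKM in siRpl14, 66.3 and 65.2 FPKM in siRpl18, and 56.4 and 58.9 FPKM in siRpl23, against 83.1 and 87.9 FPKM in siNT. Its log2 difference was -1.39 ± 0.05 (SE) in siRpl11, the lowest value of any of the 33 genes in any knockdown.

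The third libraries of these 3 enzymes fell on the same side. Gusb had 3.86, 5.92, 7.97 and 7.85 FPKM in the third siRpl11, siRpl14, siRpl18 and siRpl23 libraries, against 11.3 FPKM in siNT. Neu1 had 2.13 FPKM in the third siRpl11 library and 4.14 FPKM in the third siNT library, and Manba had 24.3 and 67.8 FPKM. Hexa, a subunit of beta-hexosaminidase, Glb1, beta-galactosidase, and Gla, alpha-galactosidase A, were also below siNT in all 4 knockdowns without overlap, with log2 differences between -0.74 and -0.11. Glb1 and Neu1 form a complex with the carboxypeptidase Ctsa, which was likewise below siNT in all 4, at -0.55 ± 0.05 in siRpl11 and between -0.18 and -0.10 in the others. Naglu, an enzyme of heparan sulfate breakdown, and Galns, a sulfatase of keratan sulfate breakdown, were near 1 FPKM, where log2(FPKM + 1) understates a fold. Naglu had 0.455 and 0.570 FPKM in siRpl11 and 1.81 and 1.30 FPKM in siNT.

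Man2b1 and Gaa went against the other glycosidases. Man2b1, the lysosomal alpha-mannosidase, had 22.1 and 20.6 FPKM in siRpl11, 98.8 and 98.2 FPKM in siRpl14, 99.6 and 99.2 FPKM in siRpl18, and 108 and 101 FPKM in siRpl23, against 16.8 and 15.1 FPKM in siNT. The ratio of means to siNT was 1.34 in siRpl11 and 6.18, 6.23 and 6.56 in siRpl14, siRpl18 and siRpl23, and no siRpl11 library came near those of the other 3. The third libraries had 18.4 FPKM in siRpl11, 107 FPKM in siRpl14, 95.5 FPKM in siRpl18 and 109.9 FPKM in siRpl23, against 13.2 FPKM in siNT. Gaa, the glucosidase that degrades glycogen in the lysosome, had 14.8 and 14.2 FPKM in siRpl11, 33.9 and 30.9 FPKM in siRpl14, 37.1 and 35.8 FPKM in siRpl18, and 39.2 and 39.1 FPKM in siRpl23, against 21.3 and 19.1 FPKM in siNT. Both siRpl11 libraries lay below siNT and all 6 libraries of the other knockdowns above it, and the third libraries did the same. Its log2 difference was -0.45 ± 0.06 in siRpl11 and 0.66, 0.82 and 0.92 (SE 0.06 each) in siRpl14, siRpl18 and siRpl23.

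**Figure D2:**
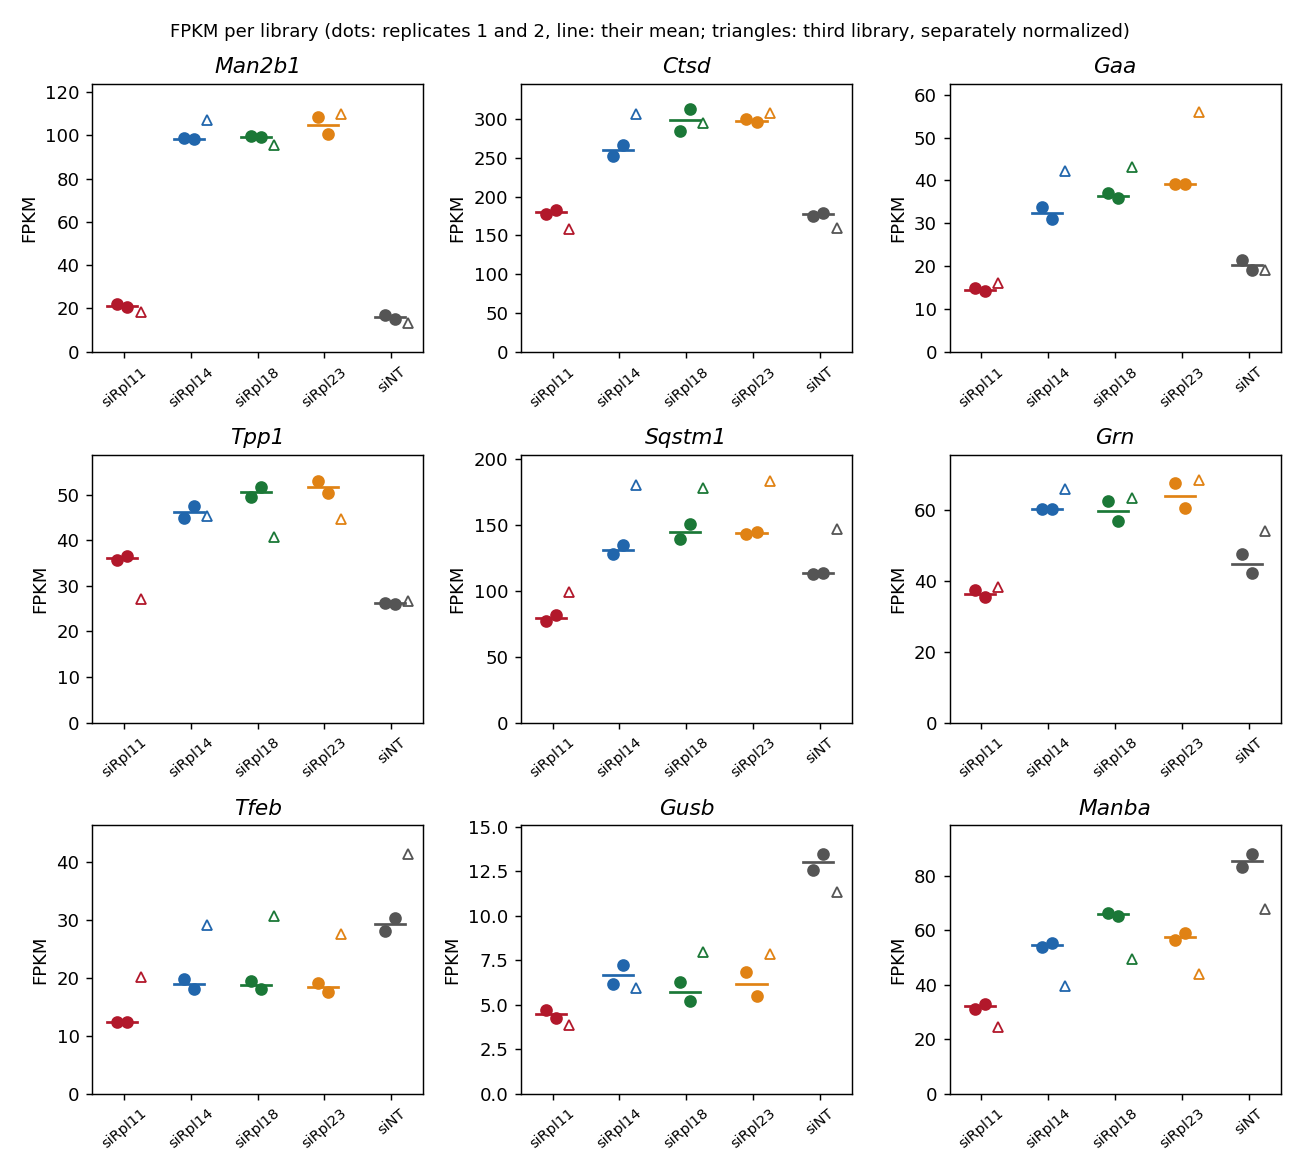
FPKM (linear axis from 0) of named lysosomal genes in each library, with a panel per gene and the groups along the horizontal axis: dots are replicates 1 and 2, lines are their means and triangles are the third library of a separately normalized table. Man2b1 stands at 98.2 to 108 FPKM in the dots of siRpl14, siRpl18 and siRpl23 and at 15.1 to 22.1 FPKM in those of siRpl11 and siNT, whereas Gusb and Manba are below siNT in every knockdown.

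Among the proteases, the cysteine cathepsins and Ctsd parted. Ctsb, Ctsl and Ctsz, all cysteine proteases, lay below siNT in every knockdown without overlap, with log2 differences from -0.79 (Ctsb in siRpl11) to -0.21 (Ctsz in siRpl23). Ctsd, the main aspartic protease of the lysosome, had 178 and 183 FPKM in siRpl11, 253 and 267 FPKM in siRpl14, 284 and 312 FPKM in siRpl18, and 299.5 and 296 FPKM in siRpl23, against 175 and 179 FPKM in siNT. The siRpl11 libraries overlapped siNT, while those of the other 3 knockdowns lay above it, at log2 differences of 0.55, 0.75 and 0.75 (SE 0.05 each). The third libraries had 158 FPKM in siRpl11, 307 FPKM in siRpl14, 296 FPKM in siRpl18 and 307 FPKM in siRpl23, against 160.1 FPKM in siNT. Tpp1, a peptidase that takes tripeptides off protein ends, had 35.6 and 36.6 FPKM in siRpl11, 45.0 and 47.4 FPKM in siRpl14, 49.5 and 51.6 FPKM in siRpl18, and 53.1 and 50.2 FPKM in siRpl23, against 26.3 and 26.1 FPKM in siNT. It was above siNT in all 8 knockdown libraries. In the third libraries siRpl11 had 27.0 FPKM and siNT 26.7 FPKM, so that there the siRpl11 difference was small, while the other 3 knockdowns had 40.7 to 45.2 FPKM.

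Genes of lipid handling were mostly below siNT in siRpl11 and closer to it elsewhere. Lipa, the acid lipase that frees cholesterol from its esters, had 2.17 and 2.27 FPKM in siRpl11, 4.09 and 4.79 FPKM in siRpl14, 4.0 and 4.66 FPKM in siRpl18, and 3.67 and 3.59 FPKM in siRpl23, against 5.08 and 4.64 FPKM in siNT. Its siRpl11 and siRpl23 libraries lay below siNT, and its siRpl14 and siRpl18 libraries overlapped siNT. Psap, the precursor of the saposins that present lipids to hydrolases, had 72.3 and 73.0 FPKM in siRpl11, 103 and 101 FPKM in siRpl14, 93.4 and 98.2 FPKM in siRpl18, and 101 and 99.2 FPKM in siRpl23, against 112 and 102 FPKM in siNT. In the third libraries Psap had 55.8 FPKM in siRpl11 and 77.1 to 88.5 FPKM in the other knockdowns, against 80.4 FPKM in siNT.

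The partners of cholesterol export did not move together. Npc2, which hands cholesterol inside the lysosome to Npc1, was below siNT in all 4 knockdowns, from -0.73 in siRpl11 to -0.27 in siRpl14 on the log2 scale. Npc1, the membrane protein that takes the cholesterol out, had 10.7 and 11.2 FPKM in siRpl11, 11.9 and 11.2 FPKM in siRpl14, 11.2 and 10.4 FPKM in siRpl18, and 11.1 and 11.0 FPKM in siRpl23, against 9.86 and 8.99 FPKM in siNT. The third libraries did not repeat this: Npc1 had 7.97, 9.11, 9.28 and 8.37 FPKM in siRpl11, siRpl14, siRpl18 and siRpl23, against 9.11 FPKM in siNT. With all 15 libraries in the fit, Npc1 was no longer called in siRpl11, siRpl18 or siRpl23, nor was it in these 3 without siNT replicate 2. Ppt1, which removes palmitate from proteins, had 17.0 and 16.5 FPKM in siRpl11 and 10.6 and 9.85 FPKM in siNT. It was the only 1 of the 33 genes with both siRpl11 libraries above all 6 libraries of the other knockdowns. Of all tested genes, 17.9% had both siRpl11 libraries there. Asah1, acid ceramidase, was at -0.51 ± 0.04 in siRpl11 and between -0.25 and -0.04 elsewhere.

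The membrane proteins were above siNT in siRpl14 and siRpl23 (5 of 5 means in each) and mostly below it in siRpl11 (4 of 5). Lamp1, the most abundant glycoprotein of the lysosomal membrane, had 235 and 239 FPKM in siRpl11, 233 and 236 FPKM in siRpl14, 254 and 268 FPKM in siRpl18, and 267 and 263 FPKM in siRpl23, against 199.7 and 200.0 FPKM in siNT. All 8 knockdown libraries were above siNT in the first table, but in the third libraries siRpl11 was below (181 FPKM) and siRpl14, siRpl18 and siRpl23 above (208, 221 and 231 FPKM) the siNT level of 193 FPKM. Mcoln1, the calcium channel of the lysosomal membrane, had 13.2 and 12.7 FPKM in siRpl11, 18.0 and 19.5 FPKM in siRpl14, 16.6 and 17.9 FPKM in siRpl18, and 18.1 and 16.6 FPKM in siRpl23, against 15.9 and 13.6 FPKM in siNT. No knockdown overlapped siNT, but the siNT libraries lay well apart, the siRpl11 difference was not called, and the calls in siRpl18 and siRpl23 were lost after quantile normalization, without siNT replicate 2 or with no filter on low values. Scarb2, the receptor that carries glucocerebrosidase to the lysosome, was at -0.19 ± 0.05 in siRpl11 and 0.39, 0.63 and 0.50 in siRpl14, siRpl18 and siRpl23. Lamp2 was at -0.21 ± 0.07 in siRpl11, and the siRpl11 calls of Lamp2 and Scarb2 were lost under both other scalings and without siNT replicate 1 or siRpl11 replicate 1. Cd63, a tetraspanin of late endosomes, was at -0.40 ± 0.05 in siRpl11 and between -0.05 and 0.26 in the others.

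The 3 proton pump genes were lower in siRpl11 by 0.23 to 0.27 on the log2 scale. Atp6v0d1, of the membrane sector, lay above siNT in the other knockdowns, at 0.17, 0.17 and 0.20. Atp6v1h, of the cytosolic sector, lay between -0.06 and -0.02 there, and the accessory subunit Atp6ap1 between 0.00 and 0.12.

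The regulators Tfeb, Sqstm1 and Grn took different courses. Tfeb, the transcription factor described above, had 12.3 and 12.4 FPKM in siRpl11, 19.8 and 18.0 FPKM in siRpl14, 19.4 and 18.1 FPKM in siRpl18, and 19.1 and 17.6 FPKM in siRpl23, against 28.1 and 30.3 FPKM in siNT. Its log2 differences were -1.18 in siRpl11 and -0.60, -0.61 and -0.64 in siRpl14, siRpl18 and siRpl23 (SE 0.07 each), and the third libraries also lay below siNT (20.1, 29.1, 30.7 and 27.6 FPKM, against 41.4 FPKM in siNT). Sqstm1, the receptor p62 that brings ubiquitinated cargo to autophagosomes, had 77.2 and 82.0 FPKM in siRpl11, 128 and 135 FPKM in siRpl14, 139 and 151 FPKM in siRpl18, and 144 and 144 FPKM in siRpl23, against 113 and 114 FPKM in siNT. The siRpl11 libraries were below siNT and the other 6 above it, as were the third libraries, with 98.9, 180.4, 178 and 183 FPKM against 147 FPKM in siNT. Grn, progranulin, a secreted and lysosomal protein, had 37.4 and 35.4 FPKM in siRpl11, 60.3 and 60.5 FPKM in siRpl14, 62.7 and 56.9 FPKM in siRpl18, and 67.8 and 60.5 FPKM in siRpl23, against 47.6 and 42.2 FPKM in siNT. It showed the same split between siRpl11 and the other knockdowns as Sqstm1, in the third libraries too (38.4 FPKM in siRpl11 and 63.4 to 68.5 FPKM in the others, against 54.1 FPKM in siNT).

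**Figure D3:**
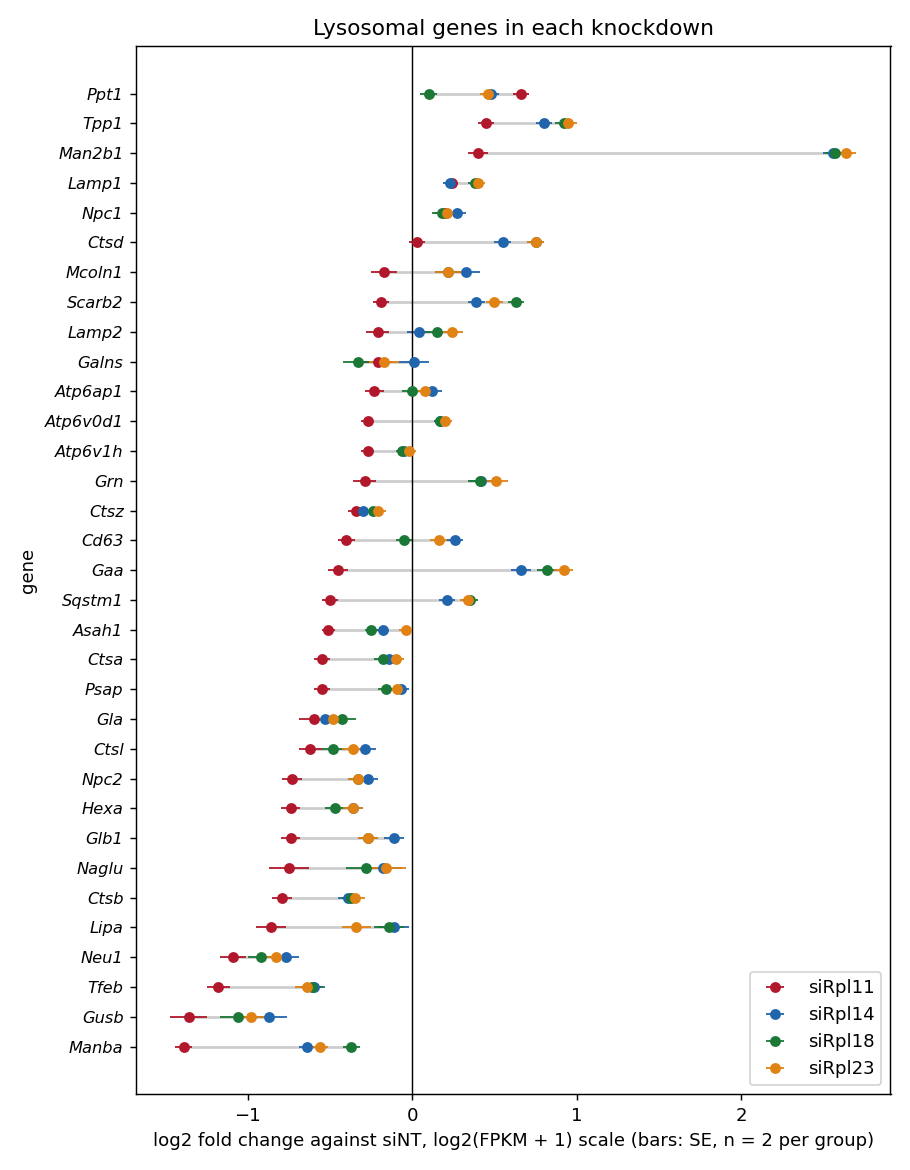
Log2 difference from siNT, in log2(FPKM + 1), of each of the 33 genes in the 4 knockdowns, with bars for the standard error of the limma fit (n = 2 per group). Genes are ordered by their siRpl11 value, and the siRpl11 points lie left of those of the other knockdowns for 29 of the 33 genes, and Man2b1 has the widest gap.

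Set directly against the mean of siRpl14, siRpl18 and siRpl23, siRpl11 had a lower level in most of the genes. The fit called 1 of the 33 higher and 28 lower in siRpl11, where 18.4% of all genes were called higher and 44.2% lower. The median difference was -0.42 over the 33 genes and -0.12 over all tested genes, and -0.51 over the 33 in the third libraries, where all 33 kept their sign. Both siRpl11 libraries lay below all 6 libraries of the other knockdowns in 27 of the 33 genes, as they did in 42.9% of all tested genes. The differences ran from -2.19 for Man2b1 to 0.32 for Ppt1. Scaling bears on this contrast: quantile normalization moved the median of all genes by 0.16, the members' median relative to all genes was then -0.33 compared with -0.31 as deposited, and the share of higher among all called genes was 29.3% as deposited, 56.8% after quantile normalization and 45.6% after median-ratio scaling. The differences of Lamp1, Npc1 and Neu1 in this contrast changed sign with the scaling, so no direction is given for them. Lamp1 and Neu1 are nonetheless counted in the 28 called lower as deposited.

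Levels of cell type markers also differed between the groups, each list in its own way. The summed level of 8 trophectoderm markers was 31.5 and 32.0 FPKM in siRpl11, 86.4 and 85.9 FPKM in siRpl14, 65.7 and 68.2 FPKM in siRpl18, and 92.5 and 86.7 FPKM in siRpl23, against 31.9 and 31.3 FPKM in siNT, with Elf5 below 1 FPKM throughout. The knockdowns in which Man2b1, Gaa and Ctsd stood well above siNT were those with the higher sums. Among them siRpl18 had the lowest sum in the first table, but siRpl14 had the lowest means of Man2b1, Gaa and Ctsd. In the third libraries siRpl18 had the lowest sum (62.8 FPKM) and the lowest Man2b1 and Ctsd (95.5 and 296 FPKM). The lowest Gaa there was that of siRpl14 (42.2 FPKM). In each of siRpl14, siRpl18 and siRpl23, 6 of the 7 markers that passed the filter were called higher, beside 33.3%, 32.8% and 34.9% of all tested genes. In siRpl11, 2 were called higher and 3 lower, beside 27.3% and 43.6% of all tested genes. The sum of 11 endoderm markers was 28.5 to 29.0 FPKM in siRpl11, 17.5 FPKM in both siRpl14 libraries, 19.7 and 19.9 FPKM in siRpl18, and 18.3 and 19.6 FPKM in siRpl23, against 10.3 FPKM in both siNT libraries, with Sox17, Sox7, Ttr and Afp below 1 FPKM. Lrp2 alone had 22.0 and 21.3 FPKM of it in siRpl11, 9.26 to 9.91 FPKM in the other knockdowns and 5.57 and 5.21 FPKM in siNT. Of the 7 endoderm markers that passed the filter, 6 lay in siRpl11 below the mean of the other 3 knockdowns, with a median log2 difference of -0.17. That contrast called 1 of the 7 higher and 2 lower, beside 18.4% and 44.2% of all tested genes. The third libraries gave a median of 0.06, and 4 of the 7 kept their sign there. Embryonic stem cell markers summed to 5018 to 6585 FPKM in the knockdowns and 7546 to 7959 FPKM in siNT, where Dppa5a alone had a mean of 4199 FPKM. In the third libraries the sums lay closer, at 6577, 5982, 5890 and 6020 FPKM in siRpl11, siRpl14, siRpl18 and siRpl23, against 6867 FPKM in siNT. The number of the 8 called lower was 5, 7, 7 and 7 in siRpl11, siRpl14, siRpl18 and siRpl23, beside 43.6%, 29.5%, 34.7% and 30.8% of all tested genes. Called higher were 2, 1, 1 and 1, beside 27.3%, 33.3%, 32.8% and 34.9%. These were Sox2 in all 4 knockdowns and Pou5f1 in siRpl11. The 7 fibroblast markers summed to 4.18 to 9.50 FPKM in the knockdowns and 16.7 to 16.9 FPKM in siNT, of which Thy1 had 3.68 to 8.29 FPKM in the knockdowns and 14.6 and 15.1 FPKM in siNT. The other fibroblast markers were at most 1.64 FPKM (Pdgfrb in siNT), Col1a1, Col1a2 and Col3a1 stayed below 1 FPKM, and Dcn and Lum were listed at 0. Col1a1 had 0.539 to 0.764 FPKM in siRpl14, siRpl18 and siRpl23, against 0.408 and 0.368 FPKM in siNT. What part these cell states have in the lysosomal values was not tested.

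Other genes of the pathway were counted in lists set up from their known roles, though with earlier results of these data known. The genes named from these lists were picked for the size of their change among called genes. Their adjusted p-values therefore describe that choice and are no separate evidence. Of 63 further lysosomal genes that passed the filter (79 listed), 10 were called higher and 36 lower in siRpl11, 18 and 19 in siRpl14, 14 and 24 in siRpl18, and 20 and 19 in siRpl23, with median log2 differences of -0.35, 0.00, -0.04 and 0.03. The shares of all tested genes called higher and lower were 27.3% and 43.6% in siRpl11, 33.3% and 29.5% in siRpl14, 32.8% and 34.7% in siRpl18, and 34.9% and 30.8% in siRpl23, and the counts in siRpl14 and siRpl23 lay near them. In siRpl11 the median of the 63 was below that of all genes (-0.11), as the median of the 33 was. Against the other 3 knockdowns, 2 of the 63 were called higher and 43 lower in siRpl11, where 18.4% and 44.2% of all genes were called so, and the median was -0.31. After quantile normalization 12 were called higher and 24 lower, and after median-ratio scaling 7 were called higher. Hyal1, a lysosomal hyaluronidase, resembled Man2b1: it had 3.32 and 3.03 FPKM in siRpl11, 13.5 and 13.2 FPKM in siRpl14, 11.0 and 11.9 FPKM in siRpl18, and 14.7 and 13.9 FPKM in siRpl23, against 3.69 and 3.34 FPKM in siNT. It rose in siRpl14 (log2 difference 1.67 ± 0.07, limma adjusted p = 3.33e-08), siRpl18 (1.47 ± 0.07, 6.69e-08) and siRpl23 (1.76 ± 0.07, 2.09e-08), and missed the threshold in siRpl11 (-0.11 ± 0.07, 0.163). Gm2a, the activator protein that presents ganglioside to the enzyme of Hexa, fell in all 4, by 1.33 in siRpl11, 1.01 in siRpl14, 1.16 in siRpl18 and 1.13 in siRpl23 on the log2 scale (limma adjusted p at most 5.1e-06). Abca2, a lysosomal lipid transporter, fell in all 4, by 1.39 in siRpl11, 0.68 in siRpl14, 1.00 in siRpl18 and 0.86 in siRpl23 (SE 0.09 each, limma adjusted p at most 0.000136). Laptm5, a lysosomal transmembrane protein best known from blood cells, rose in all 4, by 0.50 in siRpl11, 0.81 in siRpl14, 1.22 in siRpl18 and 1.15 in siRpl23 (SE 0.06 each, limma adjusted p at most 3.89e-05).

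Further proton pump genes were called in both directions. Of 16 such subunit and assembly genes that passed (23 listed), 7 were called higher and 7 lower in siRpl11, 6 and 2 in siRpl14, 7 and 3 in siRpl18, and 8 and 2 in siRpl23, with medians of -0.05, 0.11, 0.07 and 0.13 in the first table and -0.23, 0.13, -0.04 and 0.10 in the third libraries. The shares of all tested genes called higher and lower were 27.3% and 43.6% in siRpl11, 33.3% and 29.5% in siRpl14, 32.8% and 34.7% in siRpl18, and 34.9% and 30.8% in siRpl23. Atp6v1a, the catalytic subunit, had 48.7 and 50.9 FPKM in siRpl11, 60.8 and 65.7 FPKM in siRpl14, 63.9 and 68.6 FPKM in siRpl18, and 62.5 and 66.1 FPKM in siRpl23, against 49.5 and 52.2 FPKM in siNT. It rose by 0.31 in siRpl14, 0.38 in siRpl18 and 0.33 in siRpl23 (SE 0.06 each, limma adjusted p at most 0.000803) and missed the threshold in siRpl11 (-0.03 ± 0.06, 0.662). Atp6v0a4, a membrane-sector subunit known from kidney, fell in all 4, by 0.95 in siRpl11, 0.59 in siRpl14, 0.81 in siRpl18 and 0.82 in siRpl23 (SE 0.14 each, limma adjusted p at most 0.00488). Its relative Tcirg1 fell by 0.56 ± 0.10 in siRpl11 (limma adjusted p = 0.000708) and was not called in the other 3 knockdowns. Atp6v0a2 rose in all 4, by 0.17 in siRpl11, 0.37 in siRpl14, 0.36 in siRpl18 and 0.33 in siRpl23 (SE 0.07 each, limma adjusted p at most 0.0433). Atp6v1c1 was called higher in all 4 in the first table, by 0.17, 0.38, 0.31 and 0.44 (SE 0.05 each, limma adjusted p at most 0.00675). This did not recur in the third libraries, where Atp6v1c1 differed from siNT by -0.28, 0.09, -0.08 and -0.04.

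Genes for sorting and positioning of lysosomes gave 7 higher and 16 lower of 29 in siRpl11, 10 and 8 in siRpl14, 10 and 9 in siRpl18, and 12 and 9 in siRpl23. The shares over all tested genes were 27.3% and 43.6% in siRpl11, 33.3% and 29.5% in siRpl14, 32.8% and 34.7% in siRpl18, and 34.9% and 30.8% in siRpl23, near the counts in siRpl14 and siRpl18. Gnptab, the enzyme that starts the mannose 6-phosphate tag on lysosomal hydrolases, fell in all 4, by 0.83, 0.70, 0.91 and 0.77 in siRpl11, siRpl14, siRpl18 and siRpl23 (SE 0.08 each, limma adjusted p at most 4.47e-05). Sorl1, a sorting receptor between Golgi and endosomes, fell by 1.44 ± 0.06 in siRpl11 (limma adjusted p = 4.35e-08) and by 0.55 to 0.56 in the others. Vps39, of the HOPS tethering complex, fell in all 4, by 0.93 in siRpl11, 0.57 in siRpl14, 0.68 in siRpl18 and 0.57 in siRpl23 (SE 0.07 each, limma adjusted p at most 5.76e-05). Arl8a, a small GTPase that moves lysosomes outward, fell in siRpl11 by 0.35 ± 0.06 (limma adjusted p = 0.0005) and rose in siRpl14, siRpl18 and siRpl23 by 0.71, 0.91 and 0.86 (SE 0.06 each, limma adjusted p at most 5.32e-06).

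Tfeb's relatives went different ways. Of 32 genes for MiT/TFE factors and mTORC1 signalling at the lysosome that passed, 13 were called higher and 12 lower in siRpl11, 12 and 10 in siRpl14, 13 and 11 in siRpl18, and 12 and 12 in siRpl23. Over all tested genes the shares called were 27.3% and 43.6% in siRpl11, 33.3% and 29.5% in siRpl14, 32.8% and 34.7% in siRpl18, and 34.9% and 30.8% in siRpl23, and the counts in siRpl14 lay near them. Tfe3 had 89.4 and 83.9 FPKM in siRpl11, 49.9 and 47.5 FPKM in siRpl14, 58.3 and 58.6 FPKM in siRpl18, and 55.2 and 50.7 FPKM in siRpl23, against 27.0 and 25.2 FPKM in siNT. All 8 knockdown libraries were above siNT. Tfe3 rose by 1.69, 0.87, 1.13 and 0.99 on the log2 scale in siRpl11, siRpl14, siRpl18 and siRpl23 (SE 0.06 each, limma adjusted p at most 6.32e-07). It was highest in siRpl11, where Tfeb was lowest, and a relation between the levels of these genes was not tested. Flcn, folliculin, which takes part in keeping TFE3 out of the nucleus, rose by 0.82, 0.92, 0.96 and 0.94 (SE 0.05 each, limma adjusted p at most 3.13e-07). Mitf, listed with them as the other relative and named after its values were seen, fell by 0.64, 0.60, 0.56 and 0.57 (SE 0.08 each, limma adjusted p at most 0.000212).

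Autophagy genes other than Sqstm1 gave 9 higher and 20 lower of 39 in siRpl11, 13 and 13 in siRpl14, 15 and 16 in siRpl18, and 16 and 16 in siRpl23. Of all tested genes, the shares called higher and lower were 27.3% and 43.6% in siRpl11, 33.3% and 29.5% in siRpl14, 32.8% and 34.7% in siRpl18, and 34.9% and 30.8% in siRpl23, and the counts in siRpl14 lay near them. Among the ATG8-type proteins, which coat the autophagosome membrane, Gabarapl1 fell by 1.10, 0.64, 0.75 and 0.77 in siRpl11, siRpl14, siRpl18 and siRpl23 (SE 0.05 each, limma adjusted p at most 4.51e-06). Its relative Gabarap rose by 0.53, 0.80, 0.91 and 0.77 (SE 0.05 each, limma adjusted p at most 3.56e-06). Atg4a, a protease that processes these proteins, rose in all 4, by 0.53 in siRpl11, 0.79 in siRpl14, 0.70 in siRpl18 and 0.73 in siRpl23 (SE 0.11 each, limma adjusted p at most 0.00195). Wipi1, a phosphoinositide-binding autophagy protein, fell by 1.32 in siRpl11, 0.32 in siRpl14, 0.64 in siRpl18 and 0.32 in siRpl23 in the first table (SE 0.08 each, limma adjusted p at most 0.00729). In the third libraries Wipi1 was below siNT in siRpl11, at -0.71, and above it in the other 3, at 0.56, 0.38 and 0.59.

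**Figure D4:**
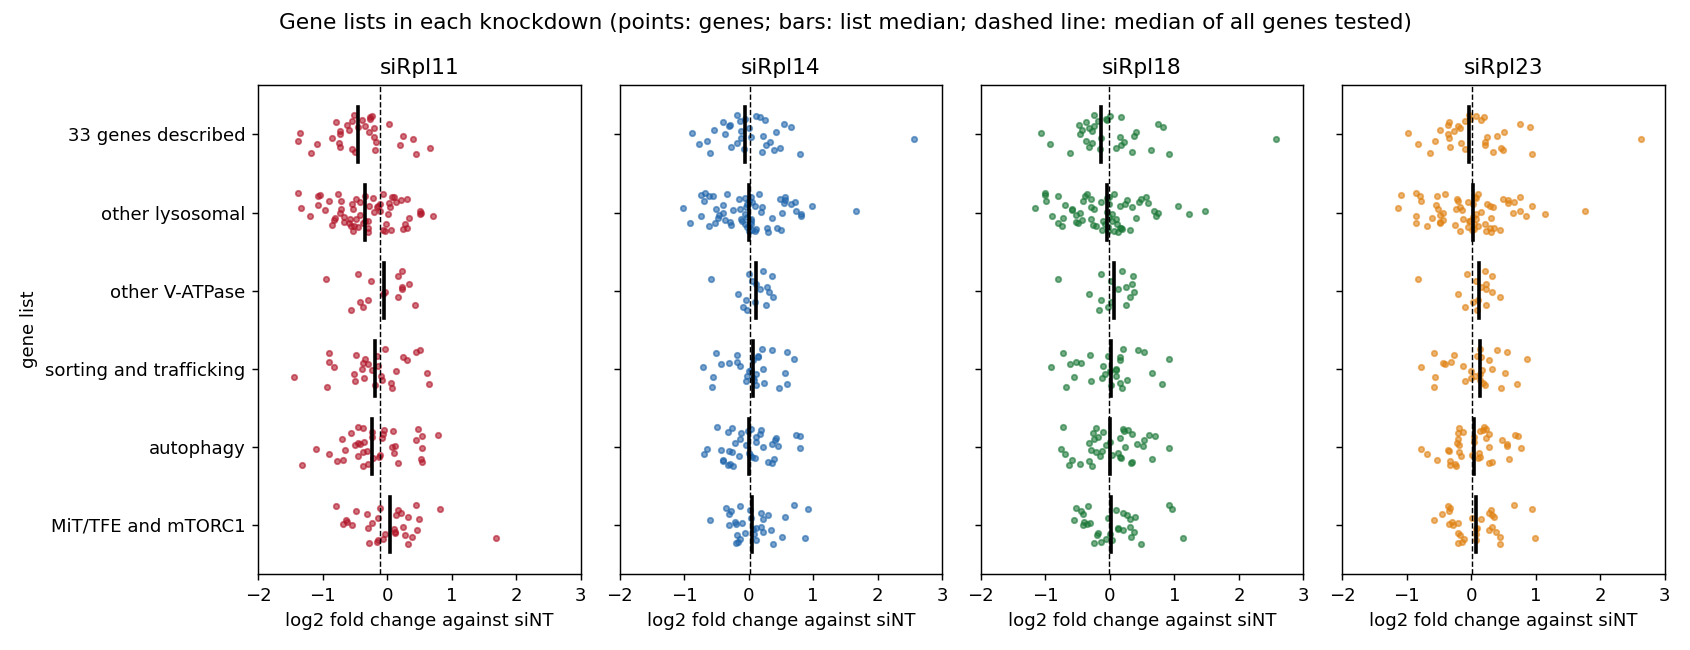
Log2 difference from siNT, in log2(FPKM + 1), of the lysosomal genes and of the further lists of pathway genes in the 4 knockdowns, a point per gene, a bar at each list's median and a dashed line at the median of all genes tested. The median of the 33 genes is -0.45 and that of the further lysosomal genes -0.35 in siRpl11, and both lie between -0.14 and 0.03 in the other knockdowns.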

How the data were processed

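Polyadenylated RNA of 15 libraries was sequenced, and the authors deposited FPKM per gene, for which the submitters' processing notes name STAR, Cuffnorm and build mm9. Tool versions, the gene annotation and any use of strand in counting are not given in the sources at hand. FPKM carry the authors' own scaling between libraries, done separately in each table, and no counts were used, so depth is known only as relative values. The first table also had 2 columns that match no sample, which were not used.

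Groups were taken from the sample labels. log2(FPKM + 1) of 10 libraries, for the 12249 genes with at least 1 FPKM in at least 2 of them, was fitted by group with limma 3.58.1 (trend, 5 residual degrees of freedom) in R 4.3.3, and a gene was called where its p, adjusted by Benjamini-Hochberg over all 12249, was under 0.05. A pseudocount of 1 understates the folds of low genes. Genes shown by library were Tfeb, Sqstm1, Mcoln1, Lamp1, Ctsd, Npc1, Grn and Psap, plus the 5 members with the largest change in each knockdown among those whose groups do not overlap and whose libraries in the second table have the same sign. Of the other lists, the 2 genes with the largest change per list and knockdown were named, among called genes with the same sign in the second table. The members and lists were chosen with earlier results of these data known. Replicates of a group correlated at 0.991 to 0.996. Alternatives were another pseudocount, no filter, quantile and median-ratio scaling, a replicate block, all 15 libraries, only the groups compared, and leaving out each library.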

Additional observations from a re-analysis of the deposited data

Results flagged for a closer look

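Several genes lay on opposite sides of siNT in siRpl11 and in the other 3 knockdowns. Among the 33 genes these were Gaa, Sqstm1, Grn, Scarb2, Atp6v0d1 and Mcoln1: every siRpl11 library, the third included, lay below the siNT libraries of its table and every siRpl14, siRpl18 and siRpl23 library above them. The log2 difference of siRpl11 from the mean of the other 3 was -1.25 for Gaa, -0.81 for Sqstm1, -0.74 for Grn, -0.69 for Scarb2, -0.45 for Atp6v0d1 and -0.42 for Mcoln1. Against siNT, the siRpl11 difference of Mcoln1 was not called. That of Scarb2 lost its call with median-ratio scaling and with quantile normalization. The share of all tested genes with this pattern was not counted, and lack of overlap with siNT in a single knockdown was common among all tested genes. The genes were chosen with these contrasts known, so the differences were not tested as independent results. The knockdowns share the siNT libraries, so a deviation of siNT would move all 4 comparisons alike.

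Among the further pathway genes Arl8a, Atp6v1a and Hyal1 are given here because they differed in this contrast, so their adjusted p-values, taken over all 12249 genes, describe that choice and are no separate evidence. The limma difference of siRpl11 from the mean of the other 3 knockdowns was -1.17 ± 0.05 for Arl8a (adjusted p = 3.67e-08), -0.37 ± 0.05 for Atp6v1a (adjusted p = 6.21e-05) and -1.75 ± 0.06 for Hyal1 (adjusted p = 7.74e-09). Arl8a was below siNT in siRpl11 and above it in the others, in the third libraries too. For Atp6v1a and Hyal1 the siRpl11 difference from siNT missed the threshold. In the third libraries Hyal1 had 2.15 FPKM in siRpl11 and 1.25 FPKM in siNT, so the opposite side seen for siRpl11 in the first table did not recur there, while the gap to siRpl14, siRpl18 and siRpl23 (13.2, 10.9 and 17.9 FPKM) did.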

How the results depend on the processing

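The members' median log2 difference from siNT in siRpl11 (-0.45) was -0.36 with median-ratio scaling, -0.38 with quantile normalization and -0.50 to -0.42 with each library left out. In siRpl18 (-0.14) it was -0.17 to -0.06 with each library left out (-0.08 without siNT replicate 1 and -0.06 without siRpl18 replicate 1), and in siRpl23 (-0.04) it was -0.10 with quantile normalization and -0.08 to -0.02 with each library left out. With siRpl11 set against the other 3 knockdowns, the members' median (-0.42) was -0.47 with all 15 libraries, -0.32 with median-ratio scaling, -0.45 with a pseudocount of 0.1, -0.28 with quantile normalization and -0.44 to -0.40 with each library left out. In that contrast the genes called higher went to 3502 with median-ratio scaling and 4267 with quantile normalization (2251 as deposited), and those called lower to 3242 with quantile normalization (5419 as deposited). Members called higher there were 3 with quantile normalization (1 as deposited). Those called lower were 25 with median-ratio scaling, 26 with quantile normalization, 25 without siRpl11 replicate 1 and 29 with all 15 libraries (28 as deposited). Further lysosomal genes called higher there were 1 with all 15 libraries, 7 with median-ratio scaling, 12 with quantile normalization and 1 to 3 with each library left out (2 as deposited), and those called lower were 24 with quantile normalization (43 as deposited). In the same contrast Lamp1 changed sign to 0.02 with median-ratio scaling (-0.09 as deposited), and with quantile normalization Npc1 changed sign to 0.16 (-0.02) and Neu1 to 0.04 (-0.25). The cause was not tested. In the comparisons with siNT no called member changed sign under any of these alternatives, and the further pathway genes kept their calls under all of them in the knockdowns for which the size of their change had them named. Member calls lost with a library left out were those of Lamp2, Scarb2 and Npc1 in siRpl11, Ctsa, Ctsl and Atp6v0d1 in siRpl14, Galns, Psap, Npc1 and Mcoln1 in siRpl18, and Cd63, Lipa, Lamp2, Npc1 and Mcoln1 in siRpl23.

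Libraries with the same replicate number shared at most weak deviations, which correlated between -0.0858 and 0.195 over 10 pairs of groups. These values cannot decide whether the numbers mark paired libraries. With the number as a replicate block, members called higher and lower were 5 and 25 in siRpl11, 13 and 12 in siRpl14, 11 and 15 in siRpl18, and 14 and 12 in siRpl23, the same as without it. Each group had 2 libraries in the fit, and genes near 1 FPKM such as Naglu and Galns rest on few reads.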
